A study of Mus musculus with 8 samples.

Results

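The proteasome genes were followed in 4 progenitor populations of mouse bone marrow, each with 2 RNA-seq libraries. They were taken by symbol, as every gene whose symbol begins with Psma, Psmb, Psmc, Psmd, Psme or Psmg followed by a digit. The rule found 48 of 22878 symbols: 8 alpha and 11 beta subunits of the 20S core, 6 ATPases and 14 other genes of the 19S cap, 4 activators, 4 assembly chaperones, and Psmc3ip, which bears a Psmc symbol but encodes a cofactor of meiotic recombination and not a proteasome subunit.

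All cells came from C57BL/6 mice, an inbred strain, with no engineered allele or treatment named in the labels. PD-1+ cells, named in the labels as non-LTi progenitors of innate lymphoid cells (LTi are lymphoid tissue inducer cells), were CD127+, Flt3-, integrin α4β7+, ST2-, Kit+, PD-1+ and CCR6-. CCR6+ cells, the LTi progenitors, had the same gate but for PD-1- and CCR6+. ChILP, the common helper-like innate lymphoid progenitors, were sorted in that same gate without the division by PD-1 and CCR6. CLP, the common lymphoid progenitors that precede them, were CD127+, Flt3+, integrin α4β7-, Sca1+ and Kit+. All were lineage-negative. Marrow for the PD-1+ and CCR6+ sorts first passed a magnetic capture of integrin α4β7+ cells, and marrow for the ChILP and CLP sorts a removal of lineage-positive cells. Below, the first pair of groups is called captured and the second depleted, and between these pairs the population and the route of enrichment cannot be told apart.

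The proteasome is the barrel-shaped protease that degrades ubiquitin-tagged proteins. The beta subunits Psmb5, Psmb6 and Psmb7 carry its catalytic sites. In cells of the immune system, and in other cells exposed to interferon, they are exchanged in new particles for the immunosubunits Psmb8, Psmb9 and Psmb10, which alter the peptides made for display on MHC class I. Immunosubunits are known as the usual form in lymphoid and myeloid cells, and Psmb8 and Psmb9 lie beside the peptide transporter genes Tap1 and Tap2 in the MHC region.

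The start-site sequences of the catalytic genes are shown because the main pattern below sets these genes against each other. Each run is the 250 bases before the start of transcription, 5′ to 3′ on the gene's strand, from RefSeq on GRCm38.p6. Capitals mark matches on either strand to 4 motifs: the interferon response core (GAAA, any 2 bases, GAAA), the gamma-activated site TTCNNNGAA, the antioxidant response core TGACNNNGC and the CCAAT box.
Psmb8 (chr17:34197945-34198194, + strand): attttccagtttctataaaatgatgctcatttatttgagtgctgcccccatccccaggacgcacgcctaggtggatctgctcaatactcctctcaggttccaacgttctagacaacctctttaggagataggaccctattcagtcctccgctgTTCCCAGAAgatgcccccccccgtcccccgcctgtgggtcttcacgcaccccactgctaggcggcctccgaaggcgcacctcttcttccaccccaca
Psmb9 (chr17:34187331-34187580, - strand): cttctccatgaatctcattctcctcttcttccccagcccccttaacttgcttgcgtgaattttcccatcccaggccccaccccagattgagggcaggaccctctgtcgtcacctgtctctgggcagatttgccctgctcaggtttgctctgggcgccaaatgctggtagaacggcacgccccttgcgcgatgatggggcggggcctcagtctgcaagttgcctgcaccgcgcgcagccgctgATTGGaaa
Psmb10 (chr8:105938393-105938642, - strand): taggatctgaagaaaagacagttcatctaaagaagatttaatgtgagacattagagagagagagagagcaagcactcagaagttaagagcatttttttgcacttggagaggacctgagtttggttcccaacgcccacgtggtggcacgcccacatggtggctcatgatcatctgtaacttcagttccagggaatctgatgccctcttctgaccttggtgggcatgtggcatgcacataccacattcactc
Psmb5 (chr14:54617996-54618245, - strand): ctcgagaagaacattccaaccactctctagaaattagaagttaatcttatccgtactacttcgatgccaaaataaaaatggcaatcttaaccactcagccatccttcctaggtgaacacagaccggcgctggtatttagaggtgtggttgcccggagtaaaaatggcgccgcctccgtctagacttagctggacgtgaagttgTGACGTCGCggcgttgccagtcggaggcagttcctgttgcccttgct
Psmb6 (chr11:70525107-70525356, + strand): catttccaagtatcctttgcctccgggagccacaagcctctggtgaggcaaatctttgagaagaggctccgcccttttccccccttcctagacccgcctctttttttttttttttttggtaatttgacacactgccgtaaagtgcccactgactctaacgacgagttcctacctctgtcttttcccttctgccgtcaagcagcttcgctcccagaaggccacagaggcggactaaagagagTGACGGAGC
In Psmb8 the gamma-activated letters began 97 bases before the start. Psmb5 and Psmb6 held the antioxidant response letters, which began 47 and 9 bases before the start. Psmb9 held a CCAAT box read on the other strand, and the Psmb10 window held none of the 4 motifs. Over the whole 300-base windows, 250 before and 50 after the start, 40 of the 48 genes had a sequence. There the interferon core was in 5 (Psmb3, Psmd4, Psmd9, Psme1 and Psmg4), or 12.5%, against 3.99% of all 27025 genes. The gamma-activated site was in 3, or 7.5% against 9.55%, the antioxidant core in 6, or 15% against 14.0%, and the CCAAT box in 37.5% against 41.1%. Of 3 motifs not capitalised, the GC box GGGCGG was in 57.5% against 38.2%, the TATA box TATAAA in 10% against 15.7% and the E2F site TTTCCCGC in 5% (Psmc2 and Psmc4) against 1.24%. A match is a run of letters and not a shown binding site, and Psma8, Psmb1, Psmb2, Psmb7, Psmc3, Psmd3, Psmd7 and Psmg2 had no entry.

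Counts in the 1 transcript kept per symbol summed to 7685188 to 13997897 reads per library, and those of all transcripts to 10535060 to 18968584. Whether both libraries of a group are from different mice is not stated in the labels, so every p-value reflects variation among these samples that may be technical. Between PD-1+ and CCR6+ libraries, Pdcd1 and Ccr6 followed the labels. Pdcd1, which encodes PD-1, had 181 and 36.3 RPKM (reads scaled by transcript length and library total) for PD-1+, against 0 and 1.10 RPKM for CCR6+ libraries. Ccr6 had 0 and 8.11 RPKM for PD-1+, against 84.2 and 23.6 RPKM for CCR6+ libraries. ChILP, not divided by these markers, had Pdcd1 at 70.9 and 92.8 RPKM, above PD-1+ replicate 2, and Ccr6 at 3.84 and 8.21. Flt3 followed the gates, at 92.1 and 157 RPKM in CLP and 5.10 to 10.3 in the other libraries. Ly6a, which encodes Sca1, named only in the CLP gate, was highest in captured libraries. It stood at 39.6 to 95.01 RPKM there, 30.1 and 31.4 in CLP and 4.89 and 10.6 in ChILP. Itgb7, a chain of integrin α4β7, was lowest in CLP, at 40.4 and 29.2 RPKM. Within the gate that the other groups share, Itgb7 stood at 173.6 to 237 RPKM in captured libraries and 67.5 and 71.3 in ChILP. Kit, in all gates, stood at 29.1 and 8.21 RPKM in PD-1+ and 17.5 and 6.93 in CCR6+ libraries. It stood at 33.3 and 42.0 RPKM in ChILP and 28.5 and 31.5 in CLP. Markers of other marrow cells divided the libraries by route of enrichment. The summed level of the 7 measured of 10 erythroid genes was 34033 to 50127 RPKM in captured and 2083 to 8716 in depleted libraries. That of 10 mature neutrophil and monocyte genes was 16226 to 35568 RPKM in captured and 1184 to 6730.4 in depleted libraries, and that of 7 dendritic genes 2872 to 5813 against 1088 to 1706. The 5 early myeloid genes ran the other way, at 747 to 1738 RPKM in captured and 6973 to 9888 in depleted libraries. B lineage genes summed to 119.7 to 168 RPKM in captured and 3.21 to 112 in depleted libraries, and 7 proliferation genes to 337 to 501 against 458 to 509. No listed marker was at 0 in all libraries. The part of these cells in the captured against depleted results below was not tested, and in bulk samples fewer cells of a type and less RNA per cell cannot be told apart.

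Most proteasome genes were abundant, and their order of levels was much the same in every population. Across the 48 genes, log2(RPKM + 0.1) of any 2 libraries correlated with r of 0.962 to 0.994 over the 28 pairs, a description across genes that share libraries. Within the 20S alpha ring the mean level over all libraries ran up to 444 RPKM for Psma7 (NM_011969). Psma8 (NM_001163609), a subunit known from testis, stood at 0.327 to 2.62 RPKM on 9 to 81 reads. Psmb8 was the highest beta subunit, with a mean of 409 RPKM. Psmb11 (NM_175204), the beta subunit of thymic cortical epithelium, had no read in any library, where 3 reads would correspond to 0.0387 to 0.0661 RPKM. In the 19S cap the ATPases ran from 39.8 RPKM for Psmc6 (NM_025959) to 146 for Psmc4 (NM_011874), a narrow range. The other cap genes ran from 29.2 RPKM for Psmd10 (NM_016883), a chaperone of cap assembly, to 173 for Psmd4 (NM_008951), a ubiquitin receptor. The activators ran from 1.99 RPKM for Psme4 (NM_134013), a nuclear activator, to 125 for Psme1 (NM_011189), and the chaperones of core assembly from 39.7 RPKM for Psmg2 (NM_134138) to 84.9 for Psmg4 (NM_001101430). Some of these levels are uncertain, because 50-base stretches of a transcript also occur in other genes or pseudogenes: 59.3% of such windows in Psme2, 57.1% in Psmb5, 55.8% in Psmb3 and 55.4% in Psma5, against 0% in 23 of the genes. More than 10% of windows were shared in 15 of the 48 genes, among them Psmb7, Psmb9 and Psmg3. How the authors' counting treated such reads is not given in the sources used here.

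Of the reads in the 1 transcript kept per symbol, all 48 genes together took 0.637% to 0.743% in captured and 0.926% to 1.02% in depleted libraries, with no overlap. The plot of the genes by library shows this division across classes. Both carry no scaling factor between libraries. On that scale the median log2 fold change of all genes tested, captured over depleted groups, was itself -0.36. The division is thus not particular to proteasome genes in direction, and the share of all genes without overlap on this scale is not given here.

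**Figure D1:**
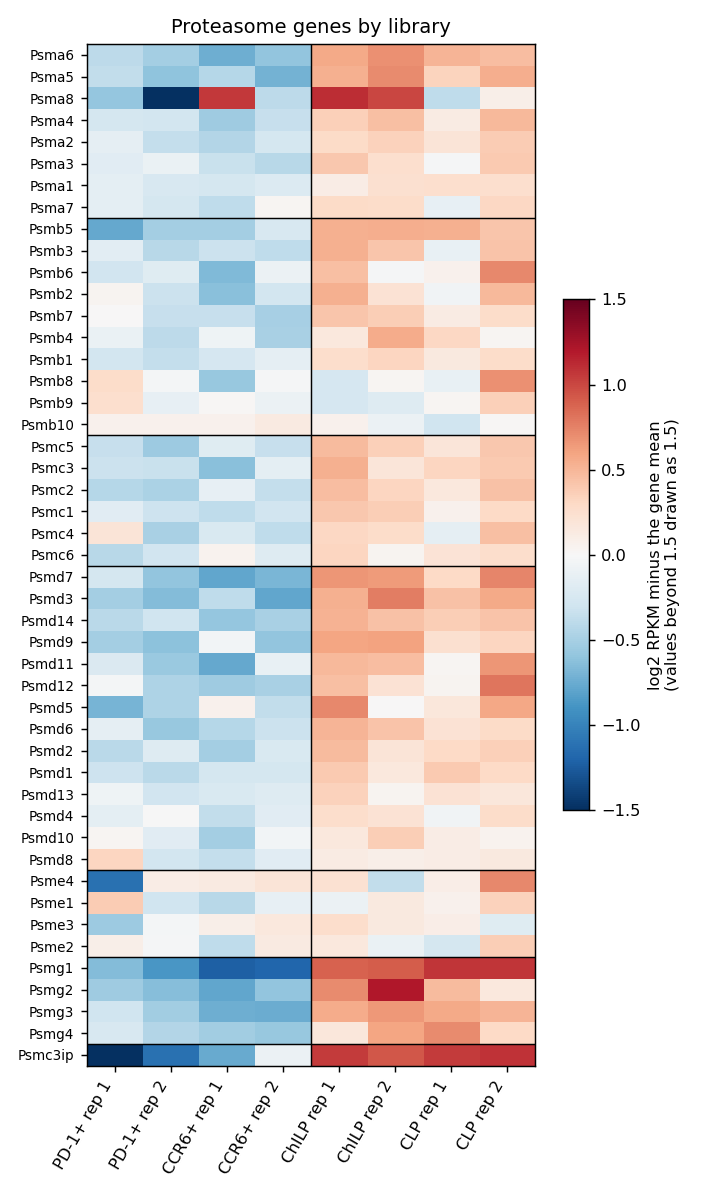
Log2 RPKM of each of the 47 detected genes in the 8 libraries, minus that gene's mean over the libraries, with genes ordered by class (lines divide classes: 20S alpha, 20S beta, 19S ATPase, other 19S genes, activators, core chaperones, Psmc3ip). Red is above and blue below the gene's mean. Most rows are blue in the 4 captured libraries on the left and red in the 4 depleted ones on the right. Psmb8, Psmb9, Psmb10 and the activators are not divided that way. The values carry no scaling factor, and on that scale the median log2 fold change of all genes, captured over depleted groups, was -0.36.

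The comparison of PD-1+ with CCR6+ cells asks how progenitors of other innate lymphoid cells differ from those of LTi cells. No proteasome gene was called between them. The quasi-likelihood test of edgeR, with p-values adjusted by Benjamini-Hochberg over all genes, called 0 of the 47 tested (a call is an adjusted p under 0.05), against 0% of all genes (0 of 13619). At an unadjusted p under 0.05 it named 1 of 47, against 5.88% of all genes. DESeq2 and limma called 0 as well, each with 1 at an unadjusted p under 0.05. The median log2 fold change of the 47 was 0.01, equal to that of all genes, with 25 higher and 22 lower in PD-1+ cells.

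Psmc3ip (NM_008949), the recombination cofactor, was the gene with the unadjusted p under 0.05. It stood at 3.40 and 6.96 RPKM in PD-1+ libraries and at 8.95 and 14.3 in CCR6+ libraries, which did not overlap (log2 fold change -1.20, SE 0.47, adjusted p = 0.82), and 27.1% of its 50-base windows also lie in transcripts of its neighbour Mlx. Psmg1 and Psmb8 had the highest positive values, with log2 fold changes of 0.38 (SE 0.22) and 0.33 (SE 0.27). Psmd5, a chaperone of cap assembly, had -0.49 (SE 0.29) and Psme3, a nuclear activator subunit, -0.44 (SE 0.25). Psmg3 had 0.27 (SE 0.22), the activator subunit Psme1 0.26 (SE 0.23) and the ATPase Psmc6 -0.34 (SE 0.22). None of these 7 values passed the test.

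The comparison of ChILP with CLP asks what changes as lymphoid progenitors commit to innate lymphoid fate. Here too no proteasome gene was called. edgeR called 0 of 47, against 0.0220% of all genes (3 of 13619), and 1 of 47 had an unadjusted p under 0.05, against 5.82%. DESeq2 and limma again called 0, with 2 and 1 at an unadjusted p under 0.05. The median log2 fold change was 0.15, against 0.05 over all genes, and 36 genes were higher and 11 lower in ChILP.

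The gene with the unadjusted p under 0.05 was Psmg2, which pairs with Psmg1 as a chaperone of alpha ring assembly. It stood at 57.5 and 81.2 RPKM in ChILP and at 49.1 and 39.3 in CLP, so that both ChILP libraries lay above both CLP libraries (log2 fold change 0.70, SE 0.28, adjusted p = 0.83). The immunosubunits Psmb8 and Psmb9 had the lowest values of the genes with at least 10 RPKM, with log2 fold changes of -0.37 (SE 0.27) and -0.36 (SE 0.18), while Psmb10 had 0.18 (SE 0.17). Psmd9 and Psmb3 had 0.37 (SE 0.23) and 0.36 (SE 0.20), and Psme3 had 0.29 (SE 0.25). Psmg1 and Psmb6 had -0.13 (SE 0.22) and -0.12 (SE 0.28). The plot of both comparisons shows all 47 genes with their errors.

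**Figure D2:**
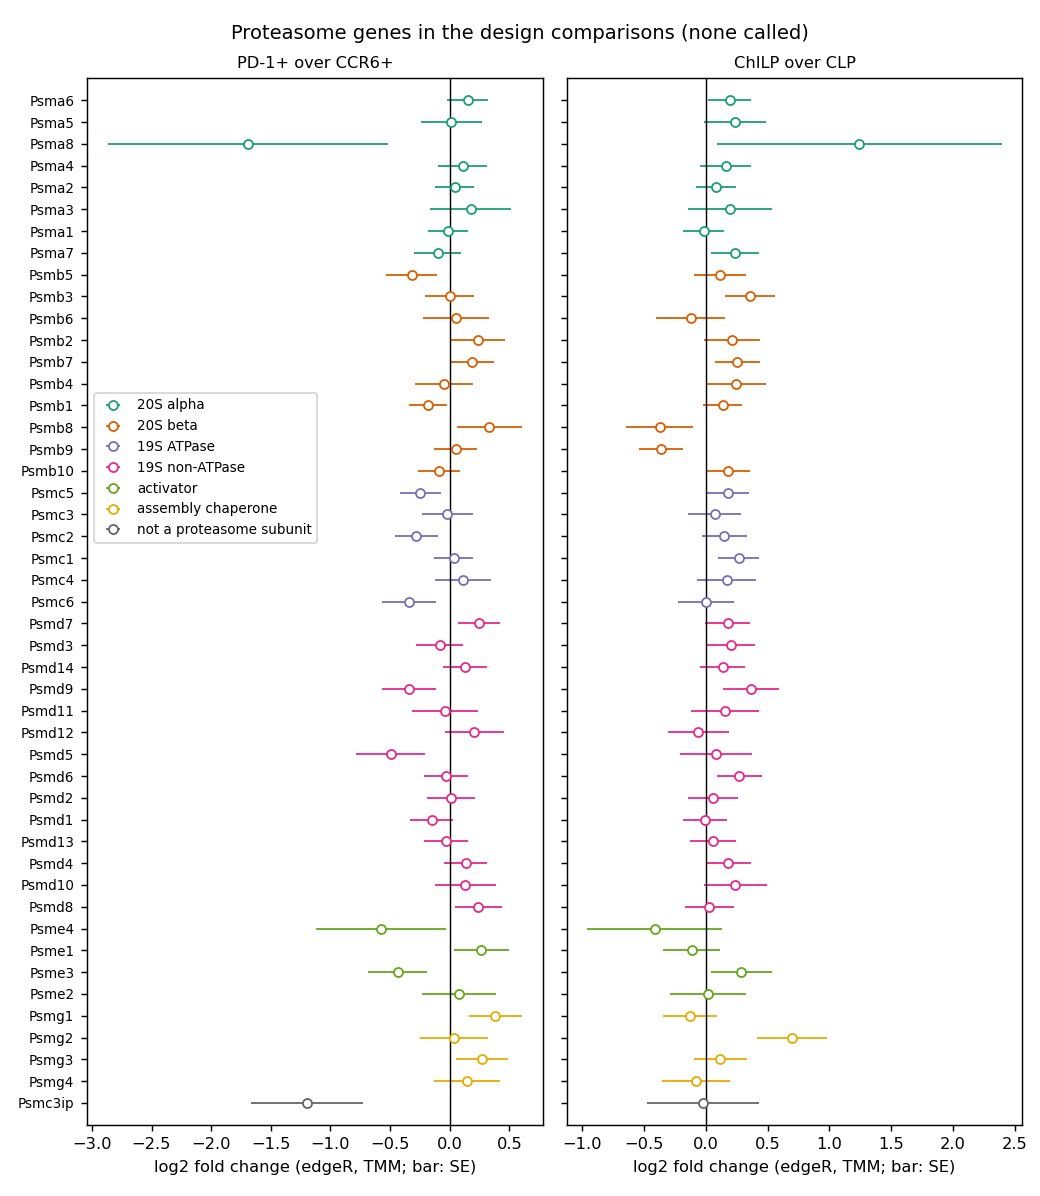
Log2 fold change of the 47 tested proteasome genes (rows, coloured by class) between PD-1+ and CCR6+ cells on the left and between ChILP and CLP on the right, from the edgeR fit of all 8 libraries, with bars of 1 SE. Values beyond 0.5 from zero are those of Psma8, Psmc3ip and Psme4 on the left and Psma8 and Psmg2 on the right, and none is called; the long bars belong to Psma8, with 9 to 81 reads.

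Asked whether a gene differed anywhere among the 4 populations, edgeR called 7 of the 47 genes, against 9.71% of all genes. They were Psmg1 (adjusted p = 0.0091), Psmd7 (0.019), Psma6 (0.023), Psmd3 (0.029), Psmg3 (0.038), Psmg2 (0.039) and Psmc3ip (0.0496). The count was 1 without ChILP replicate 1, ChILP replicate 2, CLP replicate 2 or CCR6+ replicate 2, 2 without CLP replicate 1 or CCR6+ replicate 1, 3 without PD-1+ replicate 1 and 6 without PD-1+ replicate 2. With the replicate number as a block it was 3. In each of the 7 genes all captured libraries lay below all depleted libraries, and so a contrast of captured with depleted groups was added after these values had been seen. It takes the mean of PD-1+ and CCR6+ minus the mean of ChILP and CLP in the same fit.

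In captured groups, 3 of the 4 core assembly chaperones and 6 cap genes fell, as did the constitutive subunit Psmb5, while no immunosubunit was called lower. edgeR called 13 of 47 genes lower, or 27.7%, against 10.5% of all genes, and 1 higher, Psmb10, against 11.4%. By level, 22 of 47 had all 4 captured libraries below all 4 depleted ones after TMM scaling, or 46.8%, against 14.6% of all genes, and 1 had them above, against 13.0%. The median log2 fold change was -0.35, against -0.08 over all genes, with 40 genes lower and 7 higher. Without a scaling factor, on the scale of the deposited RPKM, the median of all genes moved to -0.36 and that of the 47 to -0.63. On that scale 30 of the 47 were called, all lower, against 19.5% of all genes called lower, and the share of higher genes among all calls was 29.6%, against 52.0% with TMM. The count was 9 without ChILP replicate 2, CLP replicate 1, CLP replicate 2 or CCR6+ replicate 2, and 10 to 12 without each of the other libraries.

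**Figure D3:**
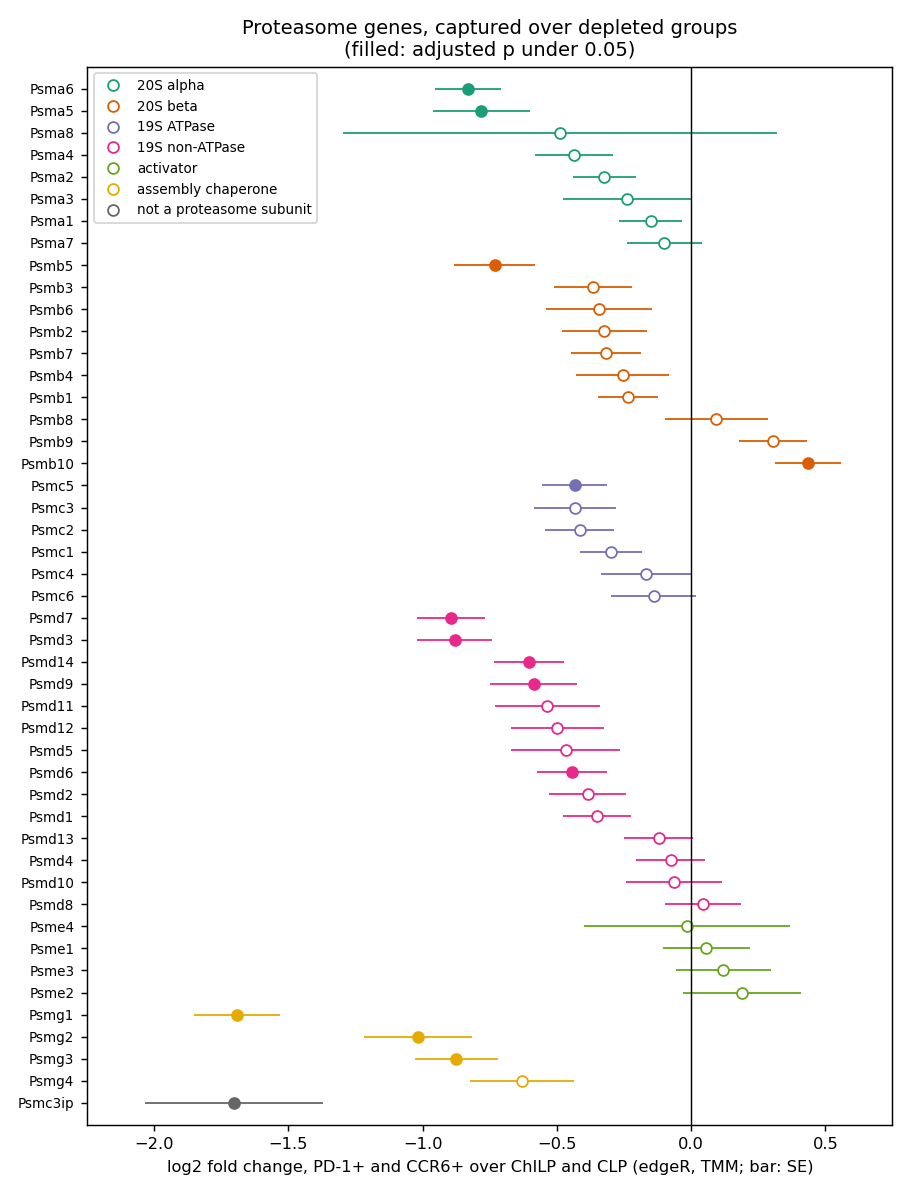
Log2 fold change of each of the 47 tested proteasome genes, PD-1+ and CCR6+ over ChILP and CLP, by class, with bars of 1 SE; filled points have an adjusted p under 0.05. The 4 core chaperones and Psmc3ip lie between -1.70 and -0.63, the cap genes mostly below zero, the activators near zero, and Psmb8, Psmb9 and Psmb10 between 0.09 and 0.43.

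The core chaperones had the lowest median log2 fold change of the proteasome classes, -0.95, with 3 of 4 called lower and all 4 below without overlap. Psmg1 (NM_019537), partner of Psmg2, stood at 23.2 and 19.7 RPKM in PD-1+ libraries, 15.6 and 15.9 in CCR6+ libraries, against 66.8 and 67.8 in ChILP and 76.3 and 76.5 in CLP. Every captured library lay far under every depleted one, and none of its 50-base windows lies in another gene. edgeR gave a log2 fold change of -1.69 (SE 0.16, adjusted p = 0.0014), or 3.23-fold lower. Psmg2 stood at 24.4 and 22.6 RPKM in PD-1+ libraries, 20.5 and 23.4 in CCR6+ libraries, against 57.5 and 81.2 in ChILP and 49.1 and 39.3 in CLP. The captured libraries lay close together with the depleted ones spread above them, and the gene fell by 1.02 on the log2 scale (SE 0.20, adjusted p = 0.011). Psmg3 (NM_025604), which acts with Psmg4 at a later step of ring assembly, stood at 44.2 and 37.8 RPKM in PD-1+ libraries, 32.6 and 32.3 in CCR6+ libraries, against 79.8 and 85.2 in ChILP and 80.5 and 77.2 in CLP, and fell by 0.87 (SE 0.15, adjusted p = 0.0068). Of the windows of Psmg3, 22.7% are shared with another gene. Psmg4 had a log2 fold change of -0.63 (SE 0.19, adjusted p = 0.053), which missed the threshold although its libraries did not overlap.

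In the 20S alpha ring, 2 of 8 genes were called lower and 5 did not overlap. Psma6 (NM_011968) stood at 83.4 and 76.8 RPKM in PD-1+ libraries, 65.9 and 72.4 in CCR6+ libraries, against 161 and 175 in ChILP and 155 and 149.7 in CLP, and fell by 0.83 (SE 0.12, adjusted p = 0.0038). All 4 captured libraries had close to the same level, well under all 4 depleted ones. Psma5, with 55.4% of its windows shared, fell by 0.78 (SE 0.18, adjusted p = 0.019), a call that held in 4 of 8 fits that each left out 1 library, with 16.4 to 20.7 RPKM in captured and 33.9 to 43.8 in depleted libraries. Psma7, the most abundant, stood at 335 to 446 RPKM in captured and 402 to 541 in depleted libraries, which overlapped (log2 fold change -0.10, SE 0.14).

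In the 19S cap, 5 of 14 non-ATPase genes and 1 of 6 ATPases were called lower. Psmd7 (NM_010817), the inactive partner of the deubiquitinating subunit, stood at 89.7 and 71.7 RPKM in PD-1+ libraries, 62.9 and 67.0 in CCR6+ libraries, against 170.5 and 168 in ChILP and 133 and 180.3 in CLP. It fell by 0.89 (SE 0.13, adjusted p = 0.0032). Psmd3 (NM_009439), a scaffold of the lid, stood at 58.1 and 52.5 RPKM in PD-1+ libraries, 63.8 and 48.3 in CCR6+ libraries, against 120.0 and 141 in ChILP and 113 and 123 in CLP, and fell by 0.88 (SE 0.14, adjusted p = 0.0049). Neither gene's groups overlapped. Psmd14, the deubiquitinating subunit itself, fell by 0.60 (SE 0.13, adjusted p = 0.014), with 38.2 to 46.6 RPKM in captured and 73.9 to 82.1 in depleted libraries. Psmd9, a chaperone of cap assembly, Psmd6, a lid subunit, and the ATPase Psmc5 were called at adjusted p of 0.035, 0.043 and 0.037. Of 8 fits that each left out 1 library, the call of Psmd9 held in 1, that of Psmd6 in 1 and that of Psmc5 in 0.

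Psmc3ip had the lowest value of all, though it is no proteasome gene. It stood at 3.40 and 6.96 RPKM in PD-1+ libraries, 8.95 and 14.3 in CCR6+ libraries, against 31.4 and 28.7 in ChILP and 31.3 and 31.9 in CLP, and fell by 1.70 (SE 0.33, adjusted p = 0.010). Without it the count of genes called lower is 12 of 46. The activators showed no call, with log2 fold changes of -0.02 for Psme4, 0.06 for Psme1, 0.12 for Psme3 and 0.19 for Psme2. Psme1 stood at 92.6 to 160.0 RPKM in captured and 116 to 156 in depleted libraries, and Psme2 (NM_011190), its interferon-induced partner in the activator ring, at 24.9 to 35.7 against 27.1 to 41.7. Both overlapped.

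The catalytic genes were set apart by type. Of the constitutive subunits, Psmb5 (NM_011186) stood at 61.5 and 74.0 RPKM in PD-1+ libraries, 74.0 and 88.9 in CCR6+ libraries, against 152 and 153 in ChILP and 152 and 140.2 in CLP. The groups did not overlap, and it fell by 0.73 (SE 0.15, adjusted p = 0.013), with the limit that 57.1% of its windows are shared. Psmb6 (NM_008946) stood at 166 and 179 RPKM in PD-1+ libraries, 128 and 192 in CCR6+ libraries, against 279 and 201 in ChILP and 212 and 336 in CLP, with a log2 fold change of -0.34 (SE 0.20, adjusted p = 0.25). Psmb7 (NM_011187) stood at 90.4 and 70.8 RPKM in PD-1+ libraries, 71.0 and 63.8 in CCR6+ libraries, against 121 and 117 in ChILP and 98.0 and 109 in CLP, with -0.32 (SE 0.13, adjusted p = 0.12). On the RPKM scale no constitutive subunit overlapped between captured and depleted libraries, and after TMM scaling Psmb6 and Psmb7 did. Without a scaling factor the median log2 fold change of all genes was itself -0.36. The share of all genes without overlap on the RPKM scale is not given here.

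Of the immunosubunits none was called lower and 1 was called higher. Psmb8 (NM_010724) stood at 482 and 389 RPKM in PD-1+ libraries, 269 and 391 in CCR6+ libraries, against 334 and 405 in ChILP and 368 and 639 in CLP. Captured and depleted libraries were mixed, and the log2 fold change was 0.09 (SE 0.19, adjusted p = 0.77) with TMM and -0.19 without a scaling factor. Psmb9 (NM_013585) stood at 208 and 161 RPKM in PD-1+ libraries, 176 and 164 in CCR6+ libraries, against 147 and 153 in ChILP and 179 and 223 in CLP, again mixed, with 0.30 (SE 0.13, adjusted p = 0.13) with TMM and 0.02 without a scaling factor. DESeq2 called it, with an adjusted p of 0.031. Psmb10 (NM_013640) stood at 97.2 and 97.0 RPKM in PD-1+ libraries, 96.6 and 101 in CCR6+ libraries, against 96.6 and 86.9 in ChILP and 75.3 and 93.5 in CLP. The lowest captured library lay just above the highest depleted one. The gene rose by 0.43 (SE 0.12, adjusted p = 0.039), but the call did not hold with a replicate block (adjusted p = 0.063), without a scaling factor (0.15, adjusted p = 0.41) or in 7 of 8 fits that left out a library.

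**Figure D4:**
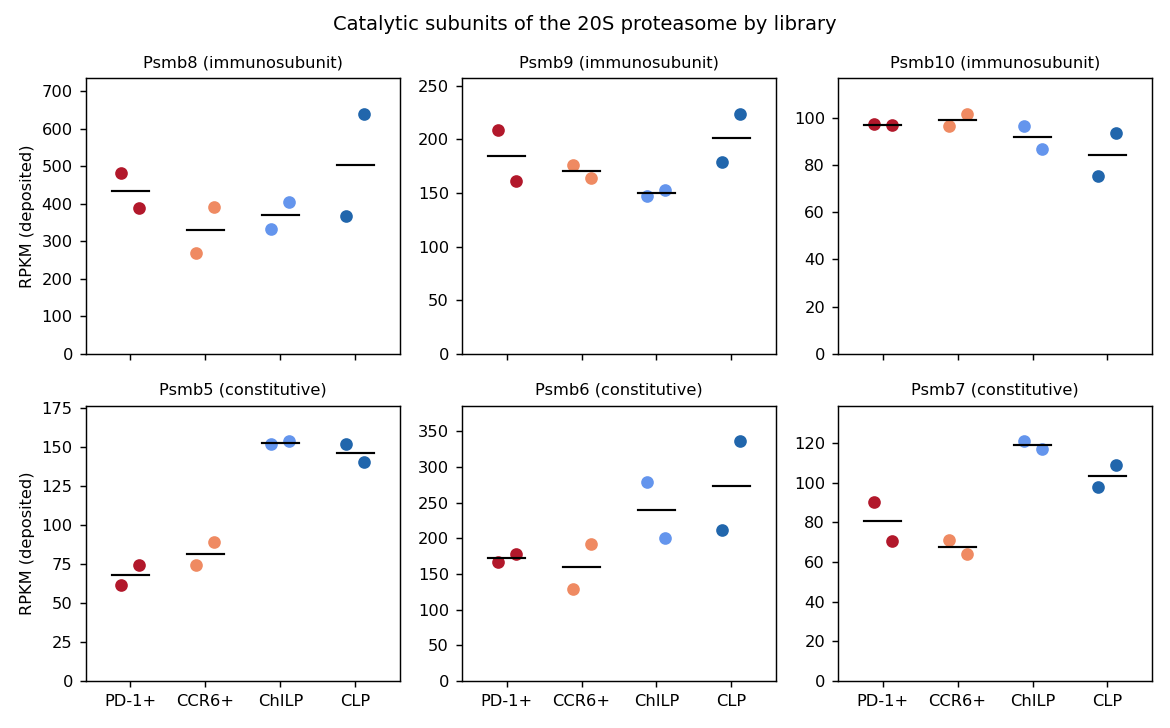
Deposited RPKM of the 3 immunosubunits (top) and their constitutive counterparts (bottom) in each library of PD-1+, CCR6+, ChILP and CLP cells; dots are libraries and lines are group means, and each panel has its own axis from 0. Levels of Psmb8 and Psmb9 mix between captured and depleted libraries, those of Psmb10 lie at 96.6 to 101 RPKM in captured and just under that, at 75.3 to 96.6, in depleted libraries, and Psmb5 lies at 61.5 to 88.9 RPKM in captured and 140.2 to 153 in depleted libraries.

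The ratio of an immunosubunit to the subunit it replaces is free of library scaling. Psmb8 over Psmb5 was 7.83 and 5.25 in PD-1+ libraries, 3.64 and 4.41 in CCR6+ libraries, against 2.20 and 2.64 in ChILP and 2.42 and 4.56 in CLP. CLP replicate 2 lay within the captured range, and the others lay below it. Psmb9 over Psmb6 was 1.25 and 0.903 in PD-1+ libraries, 1.37 and 0.857 in CCR6+ libraries, against 0.528 and 0.759 in ChILP and 0.844 and 0.665 in CLP. Psmb10 over Psmb7 was 1.08 and 1.37 in PD-1+ libraries, 1.36 and 1.59 in CCR6+ libraries, against 0.800 and 0.743 in ChILP and 0.768 and 0.858 in CLP. In the last 2 pairs no captured library overlapped a depleted one, and for Psmb10 the ratio was above 1 in all captured and below 1 in all depleted libraries.

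**Figure D5:**
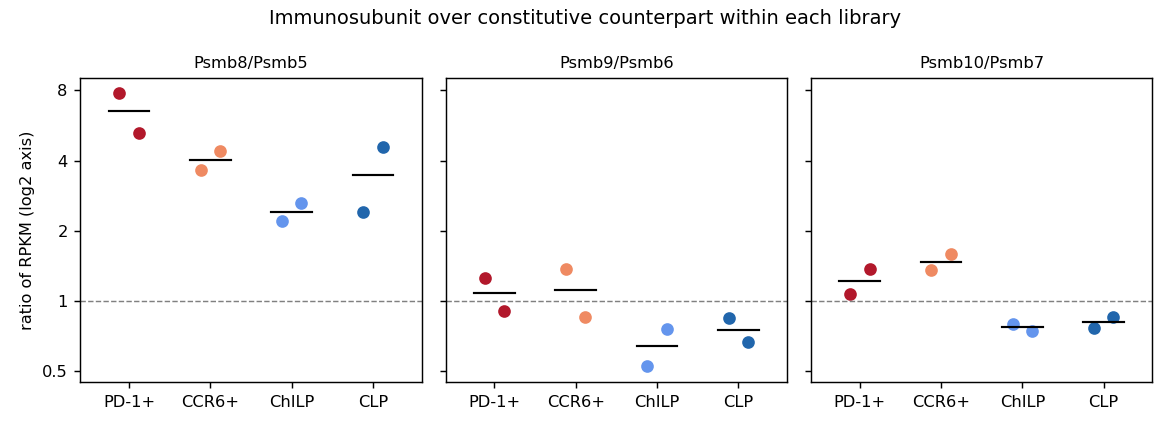
Ratio of RPKM of each immunosubunit to its constitutive counterpart in every library, on a log2 axis shared by the panels; dots are libraries, lines are group means of the ratio and the dashed line marks equal levels. Captured populations lie above depleted ones for Psmb9/Psmb6 and Psmb10/Psmb7, and for Psmb8/Psmb5 but for CLP replicate 2.

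Averaged over the 3 pairs, the log2 ratio was 1.13 and 0.90 in PD-1+ libraries, 0.92 and 0.86 in CCR6+ libraries, against -0.04 and 0.19 in ChILP and 0.22 and 0.46 in CLP. Captured libraries averaged 0.95 ± 0.12 and depleted ones 0.21 ± 0.20 (SD, n = 4 each), a difference of 0.75 that ran from 0.67 to 0.83 when each library was left out. Within a route, PD-1+ minus CCR6+ was 0.12 and ChILP minus CLP -0.26. The 0.12 averages pairs of opposite direction, 0.68 for Psmb8/Psmb5, where PD-1+ libraries lay above CCR6+ libraries without overlap, -0.03 for Psmb9/Psmb6 and -0.28 for Psmb10/Psmb7. The captured minus depleted difference was 0.84, 0.64 and 0.76 for the same pairs in that order, and ChILP minus CLP was -0.46, -0.24 and -0.07. As a share of the summed level of all 6 genes, immunosubunits made up 65.6% to 71.2% in captured and 51.1% to 62.0% in depleted libraries. The immunosubunit sum overlapped, at 542 to 787 RPKM in captured and 577 to 956 in depleted libraries, and the constitutive sum did not, at 273 to 344 RPKM against 462 to 585. The genes and the direction were known when this score was described, and it carries no test.

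Genes around the proteasome were followed in 4 lists. No gene of any list was called between PD-1+ and CCR6+ cells or between ChILP and CLP. Between PD-1+ and CCR6+ cells Uba6, a ubiquitin-activating enzyme, had the highest value, 1.29 (SE 0.50), and Tap2, a chain of the peptide transporter, had 0.76 (SE 0.35). The interferon factors Irf9 and Irf8 had -0.68 (SE 0.26) and -0.53 (SE 0.25), the thioredoxin-like Txnl1 -0.49 (SE 0.20), and Psmf1, an inhibitor of the core, -0.34 (SE 0.19). Between ChILP and CLP, Akirin2, which brings proteasomes into the nucleus, had 0.62 (SE 0.28), and the protease Ddi2 had -0.68 (SE 0.36). Tap2 had -0.73 (SE 0.35), the interferon receptor chain Ifnar1 -0.76 (SE 0.23), Irf9 -0.56 (SE 0.26) and H2-K1, a class I heavy chain, -0.43 (SE 0.19). In the captured against depleted contrast, the partners without a Psm symbol had 4 of 18 tested called lower, against 10.5% of all genes, with a median of -0.01. The count was 1 with the replicate block or without ChILP replicate 1, ChILP replicate 2, CLP replicate 2, PD-1+ replicate 2 or CCR6+ replicate 1, 2 without CLP replicate 1 or CCR6+ replicate 2, 3 without PD-1+ replicate 1, and 7 without a scaling factor. Rad23b, a shuttle that brings ubiquitin-tagged proteins to the cap, fell by 0.61 (SE 0.16), and the cap-bound deubiquitinases Uchl5 and Usp14 fell by 0.55 (SE 0.15) and 0.58 (SE 0.15). Txnl1, which binds the cap, fell by 0.73 (SE 0.14). Its call held in all 8 fits that each left out 1 library, against 2 for Rad23b, 1 for Uchl5 and 1 for Usp14. Pomp, which matures the core and is known to favour immunoproteasome assembly, had 0.02 (SE 0.16), and Nfe2l1, a transcription factor of proteasome genes, 0.21 (SE 0.17). The names in the lists for this contrast were picked after their values were seen.

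Of 6 ubiquitin supply genes none was called lower, and the polyubiquitin gene Ubb rose by 0.72 (SE 0.21). Without a scaling factor 2 of the 6 were called lower. The call of Ubb held in 4 of 8 fits that each left out 1 library and was lost with the replicate block (adjusted p = 0.053) and without a scaling factor (0.43, adjusted p = 0.12). Of 11 class I peptide loading genes 4 were called higher and 1 lower, against 11.4% and 10.5% of all genes, with a median of 0.14. Without a scaling factor 4 were called higher and 3 lower, and the median was -0.13. Without PD-1+ replicate 1 the median was -0.01, with the same counts of calls. Tapbp, the tapasin that bridges transporter and class I, rose by 1.02 (SE 0.13), B2m by 0.75 (SE 0.12), H2-K1 by 0.81 (SE 0.14) and H2-D1 by 1.32 (SE 0.17), and the chaperone Calr fell by 1.02 (SE 0.13). H2-K1 and H2-D1 belong to a family of similar genes, which leaves their levels uncertain. Tap1 and Tap2, neighbours of Psmb8 and Psmb9, had 0.14 (SE 0.19) and -0.43 (SE 0.24) and were not called.

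Of 10 interferon and class I regulators 7 were called higher and none lower, against 11.4% of all genes called higher, with a median of 0.73. Ifngr2, a chain of the interferon gamma receptor, stood at 26.9 and 53.4 RPKM in PD-1+ libraries, 53.4 and 66.2 in CCR6+ libraries, against 21.9 and 17.9 in ChILP and 21.1 and 25.1 in CLP. Every captured library lay above every depleted one, and the gene rose by 1.48 (SE 0.25). Stat2, a transducer of interferon signals, rose by 0.95 (SE 0.28), Irf8 by 0.85 (SE 0.18), Nlrc5, the activator of class I genes, by 0.82 (SE 0.18), Ifnar1 by 0.64 (SE 0.16) and Ifngr1 by 0.56 (SE 0.15). Without a scaling factor 3 of the 10 were called higher. The count was 3 without CLP replicate 2, 4 without ChILP replicate 2, CLP replicate 1, CCR6+ replicate 1 or CCR6+ replicate 2, 5 without ChILP replicate 1 or PD-1+ replicate 2, and 9 without PD-1+ replicate 1. The calls of Ifngr2 and Irf8 held in all 8 of these fits, that of Nlrc5 in 5, Ifnar1 in 4, Ifngr1 in 2 and Stat2 in 1. Irf8 is also on the dendritic marker list, whose 7 genes had 6 called higher, and the mature neutrophil and monocyte list had 7 of 10 called higher. Within the depleted groups Nlrc5 stood at 2.53 and 2.13 RPKM in ChILP and 5.79 and 5.59 in CLP, without overlap but not called (log2 fold change -1.24, SE 0.26, adjusted p = 0.20).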

How the data were processed

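Per the labels' protocols, polyadenylated RNA of sorted cells was made into Smart-seq2 libraries and read as 50-base sequences. CASAVA 1.8.4, Bowtie2 2.2.2 and mm9 appear in the submitters' processing notes without a stated use. Which program counted reads, its strand setting and its annotation: not given in the sources used here. For each library the authors deposited read counts and RPKM values of 29257 RefSeq transcripts. From those values, every RPKM equals count over length over a single total per library. No molecular identifiers are named, so the floor of 3 counts covers counting error only.

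The members and gene lists were chosen with earlier results of these data known. A symbol took its transcript of highest mean count, and 4 of the 48 genes had more than 1 transcript. Libraries of a group differed by more than sampling noise (chi-square per gene of 39.4 to 78.0). All 8 libraries entered 1 fit of the counts in edgeR 4.0.16 (R 4.3.3), scaled by TMM and filtered by filterByExpr at 10 counts. Its robust quasi-likelihood F test was two-sided, and a call is a Benjamini-Hochberg adjusted p under 0.05 over 13619 genes. The code was checked on simulated counts. The biological coefficient of variation over all genes was 0.526, on 4 residual degrees of freedom. Named by rule were the catalytic genes, Psmb11, Psma8, the activators and Psmc3ip, the 4 largest changes per direction with at least 10 RPKM, the 6 lowest p-values among 4 groups, the extremes of each class and up to 3 genes per list and comparison. Other genes of the added contrast were picked after their values were seen. Some genes of the lists are not reported here. Shared windows were counted in GENCODE M21 transcripts. Alternatives were DESeq2 1.42.0, its size factors, limma 3.58.1 on log2(RPKM + 1) and log2(RPKM + 0.1), no filter, only the 4 libraries compared, a replicate block, the longest transcript, an adjusted p under 0.10, a pseudocount of 1 RPKM in the ratios, leaving out each library and, chosen after seeing the data, the captured contrast and no scaling factor.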

Additional observations from a re-analysis of the deposited data

How the results depend on the processing

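In both comparisons of the design, 0 genes were called under every alternative run. The count of 7 of 47 among the 4 groups stood beside 1322 of all 13619 genes. It was 11 with DESeq2's test, against 3094 of 13619. With limma on log2(RPKM + 1) and log2(RPKM + 0.1) it was 17 and 16, against 2759 and 2389 of 12230. It was 3 with the replicate block and 16 without a scaling factor, against 828 and 1816 of 13619. Fits that left out 1 library assume that the lone library of its group varies like the others. Between captured and depleted groups, edgeR called 2990 of all 13619 genes. That total was 3934 with DESeq2's test, 3775 without a scaling factor and 2545 with the replicate block. With limma on log2(RPKM + 1) and log2(RPKM + 0.1) it was 4350 and 4167 of 12230. No such total is given here for fits that left out 1 library, although calls over all genes also fell in most of those fits. Counts of calls from those fits, here and above, therefore have no background. A drop in them is not read here as particular to proteasome genes. The 14 calls between captured and depleted groups became 15 with DESeq2's test, 31 and 30 with limma, 30 without a scaling factor, 23 at an adjusted p under 0.10, 11 with the block and 9 to 12 without each library. Psmg1, Psmg2, Psmg3, Psma6, Psmd3, Psmd7, Psmb5 and Psmc3ip were called under all 16 alternatives, Psmd14 under 15, Psma5 under 12, Psmd9 under 8, Psmd6 under 6, Psmc5 under 5 and Psmb10 under 4. The median of captured over depleted groups was -0.28 with DESeq2 size factors, -0.63 without a scaling factor and -0.41 to -0.32 without each library; that of PD-1+ over CCR6+ was 0.11 without a scaling factor and -0.046 to 0.10 without each library. The cause of these differences was not tested. No called value changed sign. The log2 ratio of immunosubunits to constitutive subunits moved by less than the pooled SD between libraries, 0.145, under each alternative run. With 2 libraries a group this is a loose criterion for the differences within a route. When each library was left out, PD-1+ minus CCR6+ ran from 0.008 to 0.24 and ChILP minus CLP from -0.38 to -0.14. Over all genes, libraries of the same number did not deviate together clearly. The correlation was 0.09 for ChILP and CLP and 0.08 for PD-1+ and CCR6+. Over the tested proteasome genes it was -0.43 and 0.34 for the same pairs. Single markers differed. Hba-a1 stood at 4547 and 3112 RPKM in replicate 1 of ChILP and CLP, against 566 and 548 in replicate 2. Flt3 stood at 10.3 and 92.1 RPKM, against 5.10 and 157. Whether the numbers mark paired samples is not settled by these values. With the replicate block 0 genes were called in either comparison of the design. With 2 libraries a group, small differences were not detectable, and levels of genes with shared windows are limited by the counting.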
